A study of Caenorhabditis elegans with 59 samples.

Results

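Day 1 adults of Caenorhabditis elegans that make sperm but no oocytes were profiled 8 h after somatic depletion of HSF-1 began. The comparison is between 3 libraries from auxin plates and 3 libraries from plates with the ethanol solvent (EtOH, the mock treatment), which makes 6 of the 59 samples of the series. The groups were taken from the sample titles and the column names of the deposited table.

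All 6 libraries come from strain JTL670. It carries fem-3(q20), a gain-of-function allele that keeps the germline making sperm. The endogenous hsf-1 gene on chromosome I is tagged with a degron and GFP (hsf-1::aid::gfp). The insertion ieSi57 on chromosome II expresses TIR1 fused to mRuby from the eft-3 promoter and holds a Cbr-unc-119(+) rescue, and chromosome III carries unc-119(ed3). TIR1 is an F-box protein that, with auxin, marks degron-tagged proteins for destruction. The labels give the soma as the tissue of TIR1, so the germ cells were not a target of the depletion, while RNA was taken from whole animals. Larvae grew at 25°C for 48 h, and about 120 animals per condition were then moved to auxin or EtOH plates. The glp-1(e2141) strain JTL667, which has the same degron and TIR1 but no germline, gave 3 auxin and 3 EtOH libraries at 8 h, and JTL670 was also sampled at 24 h and 48 h. CA1200, with TIR1 and no degron, was grown at 20°C and shows what auxin does alone in fertile animals without fem-3(q20). No strain with TIR1 but no degron was sequenced in the fem-3 background.

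Title and agent tag name opposite treatments for 4 of the 6 libraries, those of replicates 2 and 3, and agree for the 2 libraries of replicate 1. Across the series they differ in 18 of 59 samples. These are the JTL670 libraries of replicates 2 and 3 at all times and the JTL667 libraries of replicate 3. The comparisons with 24 h, 48 h and glp-1 are therefore affected as well. With treatments read from the tag, 0 genes were called lower and 1 higher, against 29 and 3 with the titles. In that reading each group mixes libraries with near-absent and with clear hsp-16 RNA. With the replicate 1 libraries alone, 1 against 1 with the spread taken from the other groups, 7 of the 8 inducible heat shock genes described below were called lower, the same number as with all 6 libraries, but 0 of the 14 constitutive chaperones. All directions below rest on the titles.

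HSF-1 is the transcription factor that turns on heat shock genes when unfolded proteins accumulate, and that also keeps up the transcription of chaperones in unstressed cells. Small heat shock proteins hold unfolding proteins in a soluble state. HSP70, with its J-domain partners, and HSP90, with its co-chaperones, fold and release client proteins, and the chaperonin CCT folds actin and tubulin. In the worm soma HSF-1 is known for its role in lifespan as well as in heat stress.

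The 6 libraries held 16434146 to 19461278 reads on the listed genes. Values are given in CPM, the reads of a gene scaled to a common library size, and a count of 0 allows a level of up to 3 reads, which is 0.163 to 0.19 CPM. The sperm identity of the animals was clear: the 20 sperm markers summed to 4810 to 6366 CPM with EtOH and 5449 to 7123 CPM with auxin, against 8.12 to 8.49 CPM in EtOH-treated glp-1 animals. None of the 8 embryo markers was listed in the table. RNA of oocyte markers was not absent: all 11 averaged 1 CPM or more in fem-3 with EtOH, against 3 of the 11 in glp-1 with EtOH. They summed to 1615 to 1757 CPM in fem-3 and 1947 to 2659 CPM in glp-1. Of the oocyte markers, the yolk receptor gene rme-2 had 21.1, 24.1 and 27.6 CPM with EtOH, while perm-2 and perm-4 made up most of that list's sum in fem-3. Ribosomal RNA genes took 2.59%, 2.06% and 2.91% of the reads with EtOH and 4.35%, 3.11% and 4.56% with auxin, without overlap between the groups. Genes without a read numbered 551 in auxin replicate 1 and 182 to 283 in the other 5 libraries. The part of either in the results was not tested. Nothing in the labels says that the replicates came from separate cultures, so the p-values measure the spread between these libraries.

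Few genes changed. Of 14269 genes tested, 29 were called lower and 3 higher with auxin, where a call needed an adjusted p below 0.05 and an average of 2 CPM or more across the table's 35 libraries. These are 0.203% and 0.021% of the genes tested. With the libraries paired by replicate number and only the 6 libraries fitted, 107 genes were called lower and 149 higher. The median log2 fold change of all genes tested was 0.05. At an unadjusted p under 0.05 there were 575 genes. The 29 lower genes fell by 0.87 to 4.17 on the log2 scale, and in all 29 every auxin library lay below every EtOH library, as it did for 5.21% of all genes tested. Of the 29, 11 are among the 28 HSF-1-bound genes that the study chose for their fall in glp-1 animals, and 7 are pals genes. The count depended on single libraries: it was 14 without auxin replicate 1, 16 without EtOH replicate 1 and 20 without EtOH replicate 3, and 24 to 26 when any other library was left out.

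The hsf-1 transcript did not pass the test. It had 36.8, 56.8 and 48.6 CPM with EtOH and 39.0, 47.6 and 57.7 CPM with auxin (log2 fold change 0.03, SE 0.21, adjusted p = 0.9997). The groups overlapped. Auxin acts on the tagged protein, so the transcript level does not check the depletion. Among 7 other genes known to act with HSF-1, including the negative regulators hsb-1, ddl-1 and ddl-2, 0 were called.

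The stress-inducible heat shock genes carried the deepest losses. F44E5.4, which encodes an inducible HSP70, had 6.76, 9.39 and 6.98 CPM in the EtOH libraries and 0.326, 0.12 and 0.6 CPM in the auxin libraries. Its divergent neighbour F44E5.5, also an inducible HSP70, had 7.18, 9.82 and 7.24 CPM with EtOH and 0.326, 0.36 and 0.899 CPM with auxin. In both genes every auxin library was below 1 CPM and every EtOH library above 6 CPM. The log2 fold changes were -4.17 (SE 0.32, adjusted p = 2.41e-09) and -3.74 (SE 0.29, adjusted p = 2.41e-09). The pair lies on chromosome II, F44E5.4 from 11757107 to 11759311 on the minus strand and F44E5.5 from 11759662 to 11761861 on the plus strand (WBcel235). As near-identical copies, the pair may share reads.

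The hsp-16 genes encode small heat shock proteins. hsp-16.49 fell from 5.84, 4.23 and 4.25 CPM to 0.0543, 0.48 and 0.12 CPM (log2 fold change -4.03, SE 0.35, adjusted p = 2.23e-08), and hsp-16.48 fell by 4.02 (SE 0.35, adjusted p = 2.77e-08). hsp-16.1 had 2.44, 3.56 and 2.60 CPM with EtOH, and with auxin 0 reads in replicates 1 and 3 and 3 reads in replicate 2. Summed over the libraries, hsp-16.1 had 139 reads with EtOH and 3 with auxin, a ratio of 49.5 after scaling to library size (95% exact interval 16.6 to 243, counting error only). The fitted log2 fold change of -4.14 (SE 0.40, adjusted p = 1.39e-07) is held back by the prior of 0.124 CPM that the deposited values carry. hsp-16.11 had 130 reads against 3, a ratio of 46.3 (15.5 to 227). hsp-16.2, elsewhere on chromosome V, had 119 reads against 2, a ratio of 63.5 (17.2 to 531). The other 4 named here lie side by side on chromosome V, from hsp-16.1 at 9087293 to the end of hsp-16.11 at 9090604. They hold 2 duplicated pairs whose members may share reads. With auxin, hsp-16.48 and hsp-16.49 had the same reads (1, 8 and 2), as had hsp-16.1 and hsp-16.11 (0, 3 and 0). The members of a pair may therefore not be separate measurements.

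hsp-16.41, the lowest of the group, was the only one of the 8 inducible bound genes that was not called. It had 0.67, 1.47 and 0.317 CPM with EtOH, and 0, 0.12 and 0 CPM with auxin (log2 fold change -2.40, SE 0.59, adjusted p = 0.127). Its groups did not overlap either, and its 40 reads against 2 give a ratio of 21.4 (5.54 to 183). Over all 8 genes the summed level was 32.6, 39.1 and 30.6 CPM with EtOH and 0.76, 1.92 and 1.86 CPM with auxin. The auxin libraries kept 4.43% of the EtOH mean. Their median log2 fold change was -4.03. The 7 calls, which include copies that may share reads, held when any of the 6 libraries was left out. With the mean of 2 CPM taken over the 6 libraries alone, a limit added after the data were seen, 4 of the 7 passed.

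**Figure D1:**
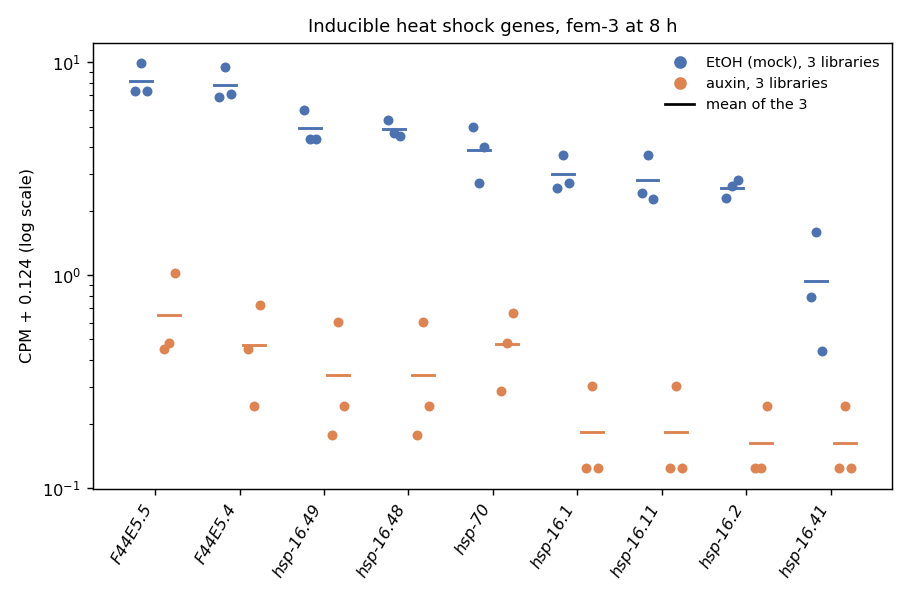
Inducible heat shock genes in fem-3 animals at 8 h, one gene per position, with CPM plus the prior of 0.124 on a log axis. Points are single libraries (blue EtOH, orange auxin) and lines are means of 3; points at the bottom, at 0.124, are libraries with 0 reads. All auxin libraries lie below all EtOH libraries of the same gene.

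hsp-70 (C12C8.1), the classical heat-inducible HSP70 gene, is outside the bound list and was also called. It had 4.87, 2.58 and 3.87 CPM with EtOH and 0.163, 0.36 and 0.54 CPM with auxin, without overlap (log2 fold change -3.06, SE 0.38, adjusted p = 1.93e-05). It was the only call among 47 tested hsp, dnj, cct and pfd genes outside the bound list, whose median log2 fold change was 0.05.

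Among the 14 constitutive chaperones and co-chaperones of the bound list, 3 were called lower. hsp-90, the single cytosolic HSP90 gene, had 2127, 2337 and 2561 CPM with EtOH and 1128, 1095 and 1207 CPM with auxin. The highest auxin library lay far below the lowest EtOH library. The log2 fold change of hsp-90 was -1.03 (SE 0.16, adjusted p = 0.000787). hsc-70, the constitutive cytosolic HSP70, fell from 1661, 1911 and 2071 CPM to 906, 983 and 1164 CPM (log2 fold change -0.89, SE 0.13, adjusted p = 0.00047). dnj-13, a J-domain protein that works with HSP70, fell from 100.3, 128 and 130 CPM to 55.2, 55.9 and 62.4 CPM (log2 fold change -1.04, SE 0.13, adjusted p = 1.18e-05). None of the 3 had overlapping groups, and the 3 calls held with any library left out.

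The remaining 11 had smaller differences that did not pass the test. fkb-6, an HSP90 co-chaperone, had 210, 240 and 255 CPM with EtOH and 172, 178 and 198 CPM with auxin (log2 fold change -0.36, SE 0.10, adjusted p = 0.322). sti-1, which links HSP70 to HSP90, had a log2 fold change of -0.40 (SE 0.15, adjusted p = 0.833), and the J-domain gene dnj-12 one of -0.27 (SE 0.09, adjusted p = 0.643). In these 3 the groups did not overlap. The chaperonin genes cct-3, cct-7 and cct-8 had log2 fold changes of -0.26, -0.18 and -0.12. hsp-60, the mitochondrial chaperonin, was the only one of the 14 with a higher mean under auxin (0.08, SE 0.18). Of the 14, 8 had all auxin libraries below all EtOH libraries, and the median log2 fold change was -0.24. The summed level of the 14 was 5854, 6555 and 7140 CPM with EtOH and 3940, 4002 and 4476 CPM with auxin, so that 63.5% of the EtOH mean was left. Most of the sum and of its fall lay in hsp-90 and hsc-70, which averaged 2342 and 1881 CPM with EtOH and 1143 and 1018 CPM with auxin. By exon length, hsp-90 and hsc-70 were the highest of the 28 bound genes, with 993 and 907 CPM per kb in the EtOH libraries and 485 and 491 in the auxin libraries. The inducible HSP70 gene F44E5.5 had 3.86 CPM per kb with EtOH.

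**Figure D2:**
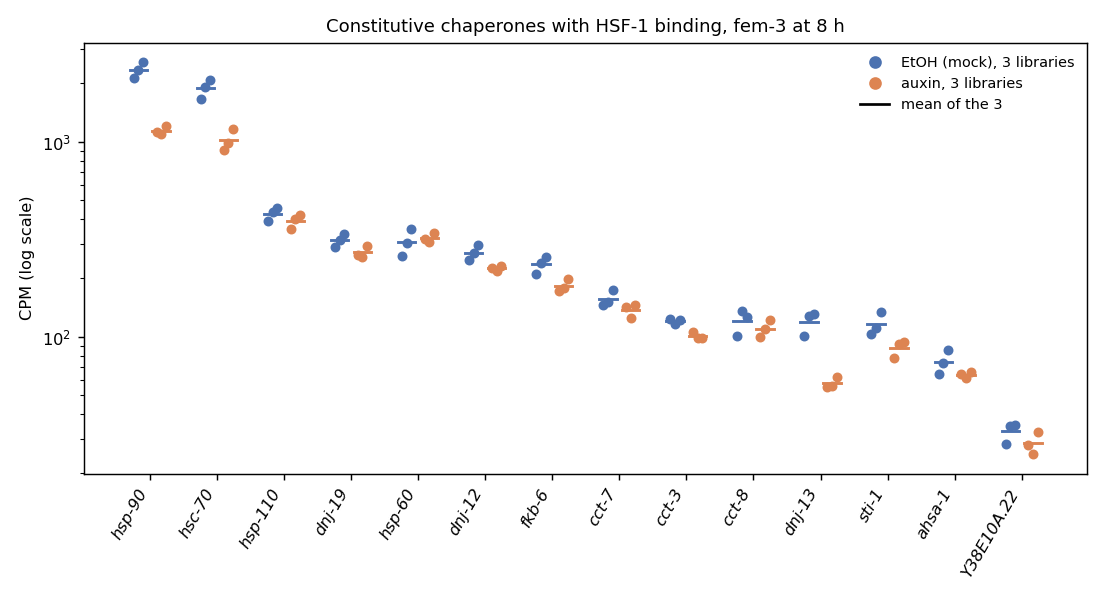
The 14 constitutive chaperones with HSF-1 binding in fem-3 animals at 8 h, in CPM on a log axis, ordered by their EtOH mean. Points are single libraries (blue EtOH, orange auxin) and lines are means of 3; hsp-90, hsc-70 and dnj-13 are the 3 called genes.

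Of the 6 bound genes that are not chaperones, 1 was called. Y94H6A.10 had 62.7, 49.2 and 56.2 CPM with EtOH and 17.7, 19.8 and 17.9 CPM with auxin, the lowest EtOH library above all auxin libraries (log2 fold change -1.59, SE 0.18, adjusted p = 2.04e-06). It lies on chromosome IV from 2710121 to 2710666. F19B2.5 had a log2 fold change of -0.54 (SE 0.19, adjusted p = 0.718) with groups that did not overlap. glh-1, a germ granule helicase, had 1090, 1103 and 1187 CPM with EtOH and 1205, 1093 and 1206 CPM with auxin, and mbf-1, egg-5 and W03F9.1 had log2 fold changes of 0.05, 0.06 and 0.01. Over all 28 bound genes, 11 were called lower, 0 higher, and 18 had non-overlapping groups with auxin below. Their median log2 fold change was -0.38. The study chose the list on glp-1 libraries that were normalized in the same table, not on the fem-3 libraries.

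In CA1200, of the 22 bound genes tested, 10 had a lower mean and 0 were lower at an unadjusted p under 0.05, where 1.92% of the 10739 genes tested there were, with a median log2 fold change of 0.03. hsp-90 and hsc-70 differed by 0.06 and 0.10. The hsp-16 genes were not tested in CA1200.

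In glp-1 animals at 8 h, 20 of the 28 bound genes were called lower, where 0.224% of all genes were. The inducible genes had medians of -4.03 in fem-3 and -3.79 in glp-1. All 14 constitutive chaperones had a less negative log2 fold change in fem-3, with medians of -0.24 and -0.82, and 11 of them were called in glp-1. The study chose the list for its fall in these same glp-1 libraries, so the larger fall and the higher number of calls there are in part fixed by that choice. hsp-90 had 499.5 ± 43.7 CPM with EtOH and 113 ± 37.3 CPM with auxin in glp-1 (SD, n = 3), a log2 fold change of -2.19. The test of the difference gave 1.16 for hsp-90 (SE 0.23, adjusted p = 0.16) and 0.79 for cct-3 (SE 0.16, adjusted p = 0.16), both higher in fem-3. No gene passed the threshold for a difference between the strains by limma, with 518 at an unadjusted p under 0.05; with library quality weights 3 genes did. The sperm markers, at 4810 to 7123 CPM in fem-3 and 8.12 to 13.2 CPM in glp-1, differ between the strains beside these values, and their part in the difference was not tested. In whole-animal RNA, fewer cells of a type and less RNA per cell cannot be told apart.

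**Figure D3:**
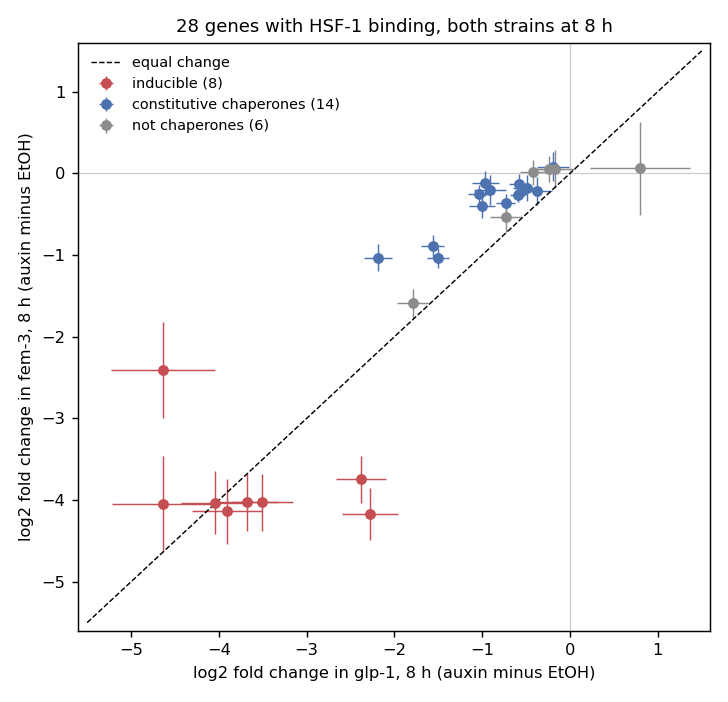
Log2 fold change (auxin minus EtOH) at 8 h of the 28 bound genes in glp-1 (x axis) and fem-3 (y axis), with bars of 1 SE. The 14 constitutive chaperones (blue) all lie above the line of equal change, with medians of -0.82 in glp-1 and -0.24 in fem-3; the list was chosen for its fall in glp-1, and no gene passed the test of the difference.

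Other classes of protein folding genes had no calls or 1. All 8 CCT subunits had lower means with auxin, with a median log2 fold change of -0.18 and 0 calls. In 5 of them all auxin libraries lay below all EtOH libraries, as in 5.21% of all genes tested. Of 29 J-domain genes, dnj-13 was the only call. Among 20 genes of the endoplasmic reticulum, 14 of the mitochondrial chaperone response and 6 prefoldin subunits, 0 were called. For the 31 proteasome subunits, 30 had higher means with auxin, with a median of 0.16 and 0 calls. Sperm genes had slightly higher means: 19 of the 20 sperm markers, with a median of 0.22 and 0 calls. The median of all genes tested was 0.05. For counts of higher or lower means, here and elsewhere, the share of all genes tested was not worked out.

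The pals genes were the other family with many calls. They are named for a shared protein signature, and some of them are known as markers of the response to intracellular pathogens such as microsporidia and the Orsay virus. Of 38 pals genes, 33 were listed and 31 tested, and 7 were called lower, 0 higher. pals-37 had 26.7, 18.6 and 19.04 CPM with EtOH and 6.62, 5.94 and 7.79 CPM with auxin (log2 fold change -1.63, SE 0.23, adjusted p = 0.000189). pals-14 had 142, 79.2 and 125 CPM with EtOH and 23.2, 47.0 and 60.4 CPM with auxin (log2 fold change -1.47, SE 0.28, adjusted p = 0.0111). Replicate 1 was the highest EtOH library and the lowest auxin library of pals-14, and the groups did not overlap.

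The other 5 called pals genes were pals-39 (-1.58), pals-32 (-1.91), pals-33 (-1.72), pals-26 (-1.07) and pals-6 (-0.87). Of the 31 tested, 28 had lower means, 19 had all auxin libraries below all EtOH libraries, and the median log2 fold change was -0.97. The 3 with higher means were pals-19 (0.40), pals-20 (0.19) and pals-18 (0.15), whose groups overlapped and which were not called. Differences near 0 were found in pals-24, with 56.9, 43.9 and 46.7 CPM against 55.4, 42.3 and 44.7 CPM, and pals-17, with a log2 fold change of -0.02, whose groups overlapped. The pals calls depended on single libraries. Without auxin replicate 1 or without EtOH replicate 1, 1 pals gene was called, and without EtOH replicate 3 there were 3, while the median stayed between -0.76 and -1.08 when any one library was left out. In glp-1 at 8 h the median was -0.19 with 0 calls, and no pals gene passed the test of the difference between strains, in which pals-37 had the smallest adjusted p of 0.16. Only 9 pals genes were tested in CA1200, and no called pals gene was among them. Of these 9, 7 had a lower mean with auxin, with a median log2 fold change of -0.25. At an unadjusted p under 0.05 by limma, 1 of the 9 was lower, beside 1.92% of all genes tested there.

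Of the 7 called pals genes, 4 had a called neighbour. pals-37 and pals-39 are neighbours on the minus strand of chromosome V, and the adjacent pseudogene WBGene00044787 (12434361 to 12436952) was called as well, at 7.91, 5.77 and 4.89 CPM with EtOH and 1.63, 1.98 and 3.36 CPM with auxin; its call was lost without auxin replicate 1 or 2 or EtOH replicate 1. pals-6 and pals-14 are divergent neighbours on chromosome I. ddn-1 and B0507.8 are adjacent on the minus strand of chromosome V, from 8758820 to 8762961. ddn-1 had 150, 72.05 and 120 CPM with EtOH and 16.4, 27.5 and 43.3 CPM with auxin (log2 fold change -2.01, SE 0.35, adjusted p = 0.00321), and B0507.8 fell by 1.84 (SE 0.36, adjusted p = 0.0121). In both, no auxin library reached the lowest EtOH library. Neither call held without auxin replicate 1 or without EtOH replicate 1. Of the 32 called genes, 19 are on chromosome V. That count holds copies that may share reads, and the share of all tested genes on chromosome V was not worked out.

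eol-1, a homologue of the RNA decapping enzyme DXO, had 23.9, 13.7 and 19.6 CPM with EtOH and 4.83, 5.28 and 6.24 CPM with auxin (log2 fold change -1.75, SE 0.27, adjusted p = 0.000772). Its call held with any library left out. The rest of the called lower genes were F42C5.3 (-2.004), F49H6.5 (-1.99), ZC239.6 (-1.75), T19C9.8 (-1.13), K08C9.1 (-1.01) and C15H11.16 (-0.94). Each of these calls was lost with some library left out. With each of the 6 left out in turn, F42C5.3 held in 0, and T19C9.8 and K08C9.1 in 1. F49H6.5 and ZC239.6 held in 2, and C15H11.16 in 5. For F42C5.3 the loss does not point to a single library, as its call was lost whichever library was dropped. Its libraries lay close together, at 17.98 ± 2.15 CPM with EtOH and 4.38 ± 0.391 CPM with auxin (SD, n = 3). Auxin replicate 1 was needed by all 6 of these calls and EtOH replicate 1 by all but C15H11.16. With the 6 libraries alone, F42C5.3 and F49H6.5 were called, while ZC239.6, T19C9.8, C15H11.16 and K08C9.1 (adjusted p = 0.0703 by limma) were not. K08C9.1 averaged 40.2 CPM with EtOH and 20.6 CPM with auxin in fem-3, and 0 CPM in both glp-1 groups at 8 h. C15H11.16 is annotated as an antisense RNA across the start of gnrr-2, and the strand setting of the counting is not given in the sources used here.

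**Figure D4:**
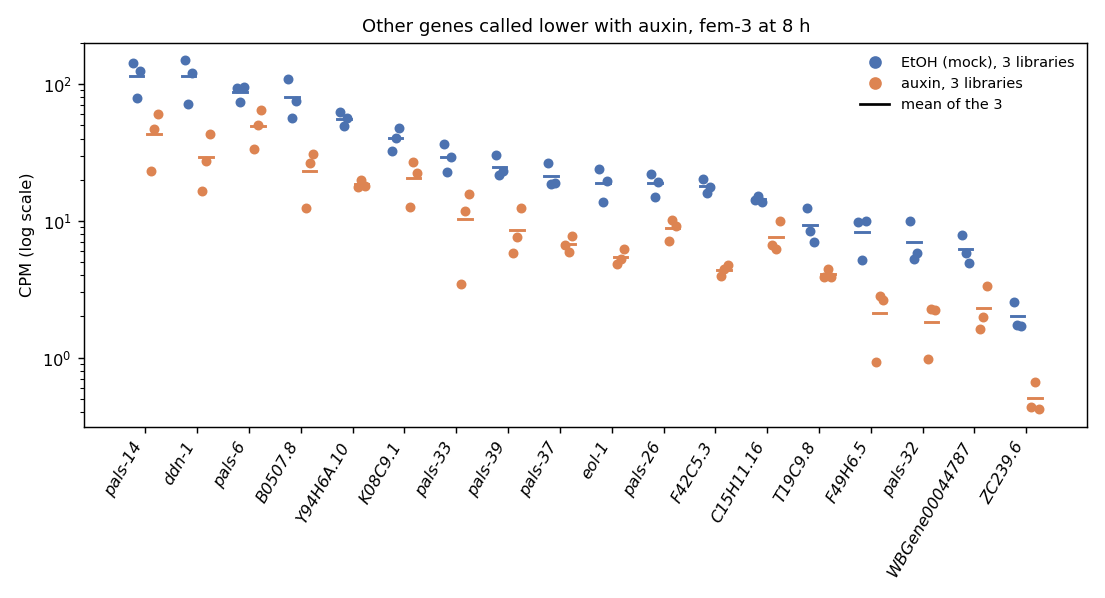
The 18 genes called lower that are neither inducible heat shock genes nor constitutive chaperones, in CPM on a log axis, ordered by their EtOH mean. Points are single libraries (blue EtOH, orange auxin) and lines are means of 3; in every gene the highest auxin library lies below the lowest EtOH library.

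In the other direction 3 genes were called higher, and all 3 were also higher with auxin in CA1200 at an unadjusted p under 0.05, as were 2.01% of the genes tested there. F55G11.2 had 0.426, 1.04 and 0.317 CPM with EtOH and 6.46, 2.52 and 2.94 CPM with auxin, with no overlap (log2 fold change 2.52, SE 0.47, adjusted p = 0.00995). All auxin libraries lay above all EtOH libraries in 5.71% of the genes tested, these 3 among them. In CA1200 the log2 fold change of F55G11.2 was 2.05, with an adjusted p of 0.696 by limma. The number of genes called higher was 0 to 3 when a library was left out, with 0 in the absence of auxin replicate 1, EtOH replicate 1 or EtOH replicate 3. Other settings gave more: 7 with a pseudocount of 0.5 or 1, 10 with the replicate block, 12 with the 6 libraries alone, 14 with the 18 of JTL670, 19 with quality weights, and 149, against 107 lower, with the replicate block in the 6 libraries alone. The other 2 are near-identical copies that both carry the name clec-209, a C-type lectin. Their CA1200 means were the same, 68.5 CPM with EtOH and 158.7 CPM with auxin, and their fem-3 values were nearly equal. The 2 copies are therefore not separate measurements, in fem-3 or in CA1200. The copy at 2351676 on chromosome V had 86.6, 98.8 and 71.0 CPM with EtOH and 161, 136 and 126 CPM with auxin (log2 fold change 0.73, SE 0.16, adjusted p = 0.0429). Of the 29 lower genes, 9 were tested in CA1200, 3 had the same sign and 0 were lower at an unadjusted p under 0.05, beside the 1.92% of all genes. No pals or hsp-16 gene was among them, nor hsp-70 or eol-1, so CA1200 gives no value for those calls. F44E5.4, F44E5.5, ddn-1 and B0507.8 averaged only 1.06, 1.07, 1.80 and 0.817 CPM with EtOH in CA1200, levels at which a fall is hard to see.

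Just short of the threshold by limma were irg-4 (log2 fold change 2.56, adjusted p = 0.0525), C32H11.4 (2.12, adjusted p = 0.0563) and cyp-35C1 (1.58, adjusted p = 0.0563), a cytochrome P450 gene. In the other direction, math-15 (-1.57, adjusted p = 0.0525) was as close. irg-4, an infection response gene, had 3.11, 2.88 and 4.51 CPM with EtOH and 48.4, 10.98 and 16.97 CPM with auxin. Auxin replicate 1 was the highest for irg-4 and cyp-35C1. In CA1200 the log2 fold changes of irg-4 and cyp-35C1 with auxin were 2.35 and 2.39.

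Muscle and pharynx markers had lower means with auxin, with no calls and with summed levels that overlapped. The 8 body wall muscle markers summed to 2836 to 4212 CPM with EtOH and 2613 to 2932 CPM with auxin, all 8 with lower means and 0 called. The 6 pharynx markers summed to 42.6 to 73.0 CPM and 24.4 to 43.9 CPM, all 6 with lower means and 0 called. The 10 neuron markers summed to 270 to 294 CPM and 234 to 279 CPM, and the 9 intestine markers to 1786 to 1900 CPM and 1819 to 1928 CPM. The ranges of all 4 lists overlapped, and the part of these shifts in the results above was not tested.

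At later times the 2 groups of bound genes took different courses. hsc-70 remained lower, with 1082 ± 136 CPM with auxin against 2434 ± 299 CPM with EtOH at 24 h, and 894 ± 36.6 against 1845 ± 158 CPM at 48 h (SD, n = 3). hsp-90, dnj-13 and Y94H6A.10 were likewise called lower at both times, and none of the 4 passed the test of a difference from 8 h. The constitutive chaperones had medians of -0.24, -0.50 and -0.46 at 8 h, 24 h and 48 h, with 3, 6 and 7 calls.

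F44E5.4 and F44E5.5 turned from lower to higher, while hsp-70 was not called at 48 h (log2 fold change -0.39, adjusted p = 0.914). At 8 h, 24 h and 48 h the auxin libraries of F44E5.4 averaged 0.348 ± 0.241, 5.45 ± 1.23 and 37.9 ± 5.63 CPM, against 7.71 ± 1.46, 6.34 ± 1.28 and 12.96 ± 3.04 CPM with EtOH (SD, n = 3). Its log2 fold change of -4.17 at 8 h became -0.22 at 24 h, and at 48 h it was called higher at 1.56 (adjusted p = 0.00488). The difference from 8 h passed the test at 24 h (3.96, adjusted p = 3.08e-05) and at 48 h (5.73, adjusted p = 4.52e-09). F44E5.5 followed the same course, with 0.528 ± 0.322, 5.83 ± 1.43 and 39.7 ± 5.88 CPM under auxin. The pair made up both of the 2 genes (0.014% of those tested) that differed between 8 h and 24 h.

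Over the same times hsp-16.1 with auxin had 0.06 ± 0.104, 0.643 ± 0.328 and 4.31 ± 0.723 CPM, and at 48 h EtOH animals had 4.89 ± 0.812 CPM (SD, n = 3). The change of its response from 8 h to 48 h passed the test (3.96, adjusted p = 0.000214), as it did for hsp-16.11, hsp-16.48, hsp-16.49 and hsp-70, where 0.343% of all genes had a higher and 0.189% a lower response at 48 h. hsp-16.2 remained lower at 48 h (log2 fold change -2.34, adjusted p = 0.0237) with no call for the change. Of the 29 lower genes, 27 had the same sign at 24 h and 10 were called, and 23 had the same sign at 48 h and 8 were called. For pals genes the medians were -0.51 at 24 h and -0.36 at 48 h, with 5 calls each. Whole-table calls were 21 higher and 18 lower at 24 h (0.147% and 0.126%) and 127 higher and 190 lower at 48 h (0.89% and 1.33%).

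**Figure D5:**
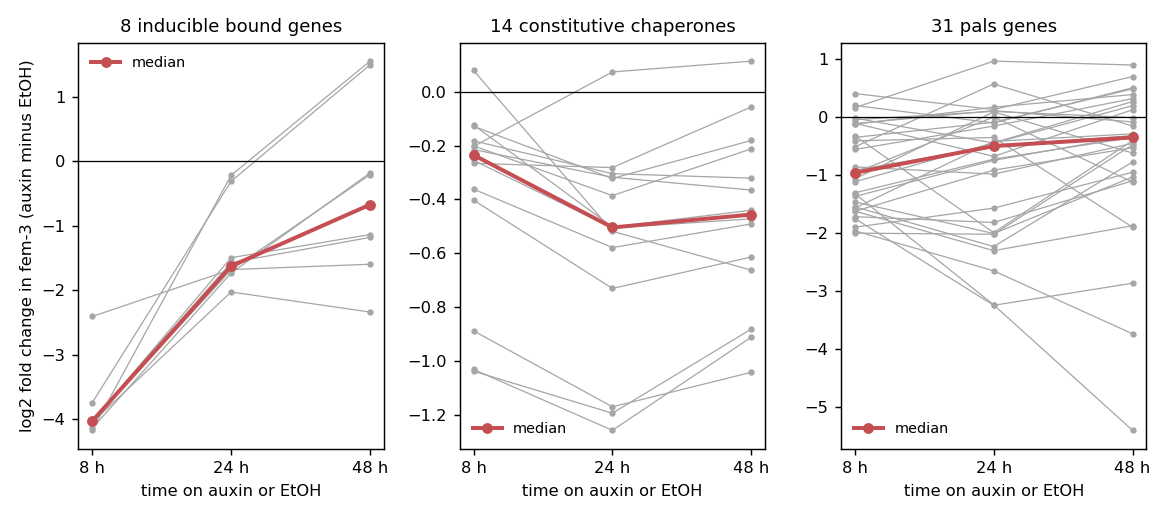
Log2 fold change (auxin minus EtOH) in fem-3 animals at 8 h, 24 h and 48 h, with a panel each for the 8 inducible bound genes, the 14 constitutive chaperones and the 31 pals genes. Each panel has its own y axis, grey lines are single genes and red lines medians: the inducible median goes from -4.03 at 8 h to -1.62 and -0.67, and the constitutive median from -0.24 to -0.50 and -0.46.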

How the data were processed

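The authors aligned reads from poly(A)-selected directional libraries to WBcel235 with STAR, counted them on genes with featureCounts, and filtered and normalized them with edgeR. The deposited values are log2 CPM with a prior: the lowest value of the table is log2 of 0.124 CPM. With the log and prior undone, 100% of values were whole reads (tolerance 0.02 reads, scaled up above 200 reads). The CA1200 and JTL611 table at 8 h was normalized separately, so that its values were set beside the others without a test across tables; the 24 h table of these strains was not used here.

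Of 15364 listed genes, 14269 reached 1 CPM in 25% or more of the 35 libraries and were tested. All 12 groups entered one model in limma 3.58.1 (lmFit and eBayes with trend, R 4.3.3), two-sided, with Benjamini-Hochberg adjustment over all genes tested. CPM values in the text have the prior removed; fold changes are on the deposited log2 scale, which understates changes of low genes. A call needed an adjusted p below 0.05 and an average of 2 CPM or more; a gene that auxin changed in CA1200 (1 gene, pgp-1) was to be left out, which removed 0 genes. Ratios of summed reads carry 95% exact (Clopper-Pearson) intervals, which cover counting error only, as PCR reads are not independent molecules. Differences between strains or times were tested as contrasts in the same model. The fit was tested on simulated data. Figures were drawn in Python 3.11.15 with matplotlib 3.10.9.

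The members and gene lists were chosen with earlier results of these data known. Named genes were hsf-1, the bound genes, the 15 largest rises and 15 largest falls among non-overlapping calls, called members of the other lists and the markers. irg-4, cyp-35C1, C32H11.4, math-15, pals-17, pals-18, pals-19, pals-20, pals-24 and the remaining calls were named after their values were seen. Gene names and positions come from WBcel235 in Ensembl release 115, in which 15349 of the 15364 IDs were found. Alternatives were other pseudocounts, no filter, fewer groups, the replicate block, median centring, quality weights, precision weights, no trend, no limit on the mean, the other labels and each library left out.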

Additional observations from a re-analysis of the deposited data

Results flagged for a closer look

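Among the genes called at 8 h or listed as bound, 10 had an effect of auxin that differed between times by the test of the difference itself in the fem-3 strain. The log2 fold change at 24 h minus that at 8 h was 3.96 for F44E5.4 and 3.43 for F44E5.5. At 48 h the difference from 8 h was 5.73 for F44E5.4, 5.24 for F44E5.5, 2.89 for hsp-16.49, 2.84 for hsp-16.48, 3.82 for hsp-16.11, 3.96 for hsp-16.1 and 2.67 for hsp-70. Outside the heat shock genes it was 2.59 for eol-1, 1.09 for C15H11.16 and 1.73 for T19C9.8, all of which were called lower at 8 h and had log2 fold changes of 0.84, 0.15 and 0.61 at 48 h that did not pass the test. Of all 14269 genes tested, 2 differed from 8 h at 24 h and 76 at 48 h. The times share no libraries, but the 8 h libraries behind the calls also enter each difference. Genes picked for a fall at 8 h are thereby drawn towards a positive difference.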

How the results depend on the processing

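Of the 32 calls at 8 h, 14 held with each of the 6 libraries left out in turn, 6 held under all 22 alternatives that take the treatment from the titles, and none reversed under any of them. Left out one at a time, the libraries gave 14 to 26 genes lower, 0 to 3 higher, 1 to 7 pals genes and 2 to 6 genes that differed between 24 h and 8 h; the 11 bound genes, 7 of them inducible, were called each time.

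The treatment read from the agent tag gave 0 genes lower, 1 higher, 0 bound, inducible, constitutive or pals genes, medians of 0.18 for the 28 bound genes and -0.01 for pals, and 0 genes differing at 24 h or 48 h. Only libraries whose title and tag agree gave 83 lower, 87 higher, 0 constitutive genes, a pals median of -1.61, and 120 genes for the strain difference, 147 for 24 h and 144 for 48 h, with 1 library per fem-3 group assumed to vary like the other groups. Quality weights gave 62 lower, 19 higher, 3 for the strain difference, 27 for 24 h and 448 for 48 h. Genes called higher numbered 7 with a pseudocount of 0.5 or 1, 12 with only the 6 libraries, 14 with only the 18 of JTL670, 1 without the variance trend, and 0 when genes with the same sign at an unadjusted p under 0.05 in CA1200 were left out, an alternative chosen after seeing the data. The 24 h difference gave 6 genes with a pseudocount of 1, 6 with the 18 libraries of JTL670 (175 at 48 h), 1 with precision weights and 5 without the trend. The limit of 2 CPM over the 6 libraries, also added after seeing the data, left 4 inducible genes.

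The replicate numbers were not taken to pair the libraries. The correlations of same-numbered libraries after removal of group means were 0.118, 0.084 and 0.142, not all above 0.1. Each library still correlated best with its own number, and libraries of different numbers had correlations of -0.118 to -0.023. With the replicate block 27 genes were lower and 10 higher; with the replicate block in the 6 libraries alone, 107 were lower and 149 higher, with 5 constitutive and 14 pals genes.

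Sign changes occurred in 5 genes that were never called: W03F9.1 (-0.02 with median centring, with agreeing labels and without EtOH replicate 1 or 2, -0.06 without auxin replicate 3), ahsa-1 (0.00 with agreeing labels), and, without EtOH replicate 1, hsp-60 (-0.03), mbf-1 (-0.00) and egg-5 (-0.03). With a library left out, the highest values were 0.08, 0.19, 0.12 and 0.15 for W03F9.1, hsp-60, mbf-1 and egg-5. The cause of these changes was not tested. The hsp-16 genes had 0 to 8 reads per auxin library, which limits their precision.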
